A study of Mus musculus with 2 samples.

Results

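The expression of 7 secreted, surface or metabolic genes was followed through the endothelial zones of the mouse liver in cirrhosis and in control livers: Cntfr, Rnase4, Ang, Prelp, Cyp4b1, Sult1a1 and Olfm1. They are 7 of the 31057 gene rows of each count table, and they were chosen by their lower summed counts in cirrhotic sinusoidal endothelium in an earlier look at the same 2 libraries, so their ratio there is a description with no test. The working name for the set was genes lost in cirrhotic sinusoidal endothelium, but all 7 were still counted in the cirrhosis library, with 185 UMIs for Ang to 10556 UMIs for Cyp4b1 in its liver sinusoidal endothelial cell (LSEC)-like cells. A UMI is a molecular tag that counts 1 captured transcript.

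The cirrhosis group was C57BL/6 mice of the genotype Cdh5-Cre+, mTmG +/+, aged 16 weeks, in which cirrhosis was induced with vaporized carbon tetrachloride for 12 weeks. The control group had the same strain, genotype and age, and what the control mice inhaled is not given in the sources used here. An endothelial promoter drives Cre in these mice, and recombination switches the mTmG reporter from membrane tdTomato to membrane GFP. Livers of 3 mice per group were pooled, hepatocytes were spun out, and live GFP-positive cells were sorted into 1 droplet library per group. With 1 library a group the differences have no replicate, none is tested, and all intervals are 95% intervals that cover counting error alone.

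The cirrhosis library held 8327 barcodes and the control library 5642, with medians of 8537 UMIs and 6865 UMIs, and 17 barcode sequences occurred in both. LSEC-like cells, named from Stab1, Stab2, Clec4g and 9 other markers, numbered 2592 in the cirrhosis and 2729 in the control library, and hepatocyte-like barcodes 1333 and 435. The 12 LSEC markers summed to 20731 CPM in LSEC-like cells in cirrhosis and 29353 CPM in control, where CPM is a gene's summed UMIs in a class over all UMIs of that class, on the usual counts-per-total scale. Hepatocyte markers summed to 623 CPM in cirrhosis and 402 CPM in control in the same cells. All 12 LSEC markers and all 16 hepatocyte markers were detected in both libraries. Fos, an early-response gene, had 211 CPM in LSEC-like cells in cirrhosis and 2163 CPM in control.

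LSECs are the fenestrated lining of the hepatic capillaries, and they differ along the path from the portal tract, where blood enters, to the central vein, where it leaves. Endothelial cells near the central vein secrete Wnt ligands and R-spondin that pattern the hepatocytes beside them. Carbon tetrachloride injures hepatocytes around the central vein. The members fall into 4 roles. Cntfr encodes the ligand-binding receptor for ciliary neurotrophic factor, which signals with the co-receptors LIFR and the common signal transducer encoded by Il6st. Rnase4 and Ang encode secreted ribonucleases, of which angiogenin, the product of Ang, is known for its action on blood vessel growth and for cleaving transfer RNA. Prelp, a small leucine-rich repeat protein that binds basement membrane to collagen, and Olfm1, a secreted glycoprotein with an olfactomedin domain best known from neurons, belong to the extracellular space. Cyp4b1, a cytochrome P450 that oxidises fatty acids and foreign compounds, and Sult1a1, a sulfotransferase that conjugates phenols, are metabolic enzymes.

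Rnase4 and Ang share a locus, which is shown because their ratios differed in hepatocyte-like barcodes. In GENCODE M21 on GRCm38, Rnase4 spans chr14:51091077-51106151 and Ang chr14:51091150-51102009, both on the plus strand. They share 219 exonic bases and no coding base, and the Rnase4 coding exon begins 2983 bases after the end of the Ang coding exon. The RefSeq table for GRCm38.p6 held promoters of all 7 members, and it gives Rnase4 and Ang the same start, with a further start for Rnase4 alone. The 250 bases before each of those starts, and before the start of Sult1a1, which with Rnase4 and Ang was less than 2-fold lower or was higher in hepatocyte-like barcodes, are printed 5′ to 3′ on the gene's strand. Capitals mark GGAAG, the core letters of ETS factor sites, and GTTAAT, letters of 1 arm of HNF1 sites, on either strand, with no overlap between matches.
Rnase4 and Ang, shared start, chr14:51090827-51091076, plus strand: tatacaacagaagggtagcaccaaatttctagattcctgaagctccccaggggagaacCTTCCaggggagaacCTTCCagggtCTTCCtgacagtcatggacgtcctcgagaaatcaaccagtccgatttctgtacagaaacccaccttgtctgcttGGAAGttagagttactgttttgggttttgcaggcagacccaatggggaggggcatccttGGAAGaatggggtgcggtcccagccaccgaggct
Rnase4, downstream start, chr14:51095750-51095999, plus strand: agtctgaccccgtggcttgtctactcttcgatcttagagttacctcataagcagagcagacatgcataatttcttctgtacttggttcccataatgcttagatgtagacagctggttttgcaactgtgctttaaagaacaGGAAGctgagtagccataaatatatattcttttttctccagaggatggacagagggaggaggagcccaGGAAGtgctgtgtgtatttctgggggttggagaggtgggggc
Sult1a1, chr7:126676419-126676668, minus strand: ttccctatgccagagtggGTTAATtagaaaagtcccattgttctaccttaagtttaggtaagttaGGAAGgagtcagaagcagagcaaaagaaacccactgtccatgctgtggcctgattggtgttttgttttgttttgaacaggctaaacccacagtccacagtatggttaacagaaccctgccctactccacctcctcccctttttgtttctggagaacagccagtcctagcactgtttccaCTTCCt
The shared window held 5 ETS cores, the downstream Rnase4 window 2 and the Sult1a1 window 2, while 64.1% of all 32817 promoter windows of this length hold at least 1. The HNF1 letters were found 1 time, before Sult1a1, and 6.44% of all windows hold it. These are matches of letters and not evidence of binding.

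The other members lie apart. Cntfr is at chr4:41657498-41697089, Cyp4b1 at chr4:115624725-115647723, Sult1a1 at chr7:126672865-126676432 and Prelp at chr1:133910304-133921414, all on the minus strand, and Olfm1 is at chr2:28192992-28230736 on the plus strand. Sult1a1 overlaps Sgf29 and Prelp overlaps Gm15851 on the opposite strand, and whether the counting used strand is not given in the sources used here. Ang belongs to a family of close mouse paralogs, so reads shared with them could have been assigned elsewhere, and its level is uncertain to that extent.

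In LSEC-like cells every member was lower in cirrhosis, and the sizes differed. Prelp stood at 12.2 CPM in cirrhosis and 91.0 CPM in control, a log2 ratio of -2.90 (interval -3.08 to -2.72). Rnase4 stood at 22.4 CPM against 138 CPM (log2 -2.63, -2.76 to -2.49), and Cntfr at 19.4 CPM against 103.5 CPM (log2 -2.41, -2.56 to -2.27). These 3 formed a group whose intervals lay apart from those of the other 4. Sult1a1 stood at 45.9 CPM in cirrhosis and 129.7 CPM in control, 2.83-fold lower (log2 interval -1.60 to -1.40), and Olfm1 at 44.9 CPM against 116 CPM (log2 -1.37, -1.47 to -1.27). Cyp4b1 stood at 420.2 CPM against 1073 CPM, a log2 ratio of -1.35 (-1.39 to -1.32). Ang, the least counted member, stood at 7.36 CPM against 16.9 CPM (log2 -1.20, -1.46 to -0.94). The intervals of Cyp4b1, Olfm1 and Ang overlapped, and that of Sult1a1 overlapped those of Olfm1 and Ang. Markers of stellate cells and fibroblasts, which are known to make small leucine-rich proteins, summed to 46.3 CPM in cirrhosis and 114 CPM in control in these cells, with 12 of 12 detected, and their part in the Prelp ratio was not tested.

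All 7 members were thus at least 2-fold lower, where 1.66% of the 6865 genes whose mean reached 20 CPM were. The median log2 ratio was that of Sult1a1 over the members and -0.04 over those genes. Since the members were chosen for this contrast, nothing is read from the count. Ang, at a mean under 20 CPM, is not among the 6865 genes. Ordered from the lowest ratio among them, Prelp was in place 6, Rnase4 in place 9, Cntfr in place 12, Sult1a1 in place 44, Olfm1 in place 55 and Cyp4b1 in place 57.

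The control LSEC-like cells came from several first-step clusters, and the ratios depended on which of them was used. All cirrhosis LSEC-like cells were also set against only the 148 control cells of first-step cluster 3. That cluster held 1737 of the cirrhosis LSEC-like cells as well, but those outside it stayed in the comparison. There 4 of 7 members were at least 2-fold lower. The log2 ratios were then -2.29 for Prelp, -2.05 for Cntfr, -1.36 for Cyp4b1 and -1.23 for Rnase4, but -0.84 for Olfm1, -0.35 for Sult1a1 and -0.19 for Ang. Those control cells had 489 CPM of Fos, against 784 CPM to 2883 CPM in the other 3 control clusters with 100 cells or more. They held 52.6 CPM of Rnase4, 58.6 CPM of Sult1a1, 80.2 CPM of Olfm1 and 8.38 CPM of Ang. The periportal control cells described below held 60.8 CPM, 53.4 CPM, 77.3 CPM and 6.75 CPM of these. The part of the zone in these ratios was not tested. Fos itself was lower in cirrhosis in each of the 5 endothelial classes compared, and its part in the members' ratios was not tested.

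**Figure D1:**
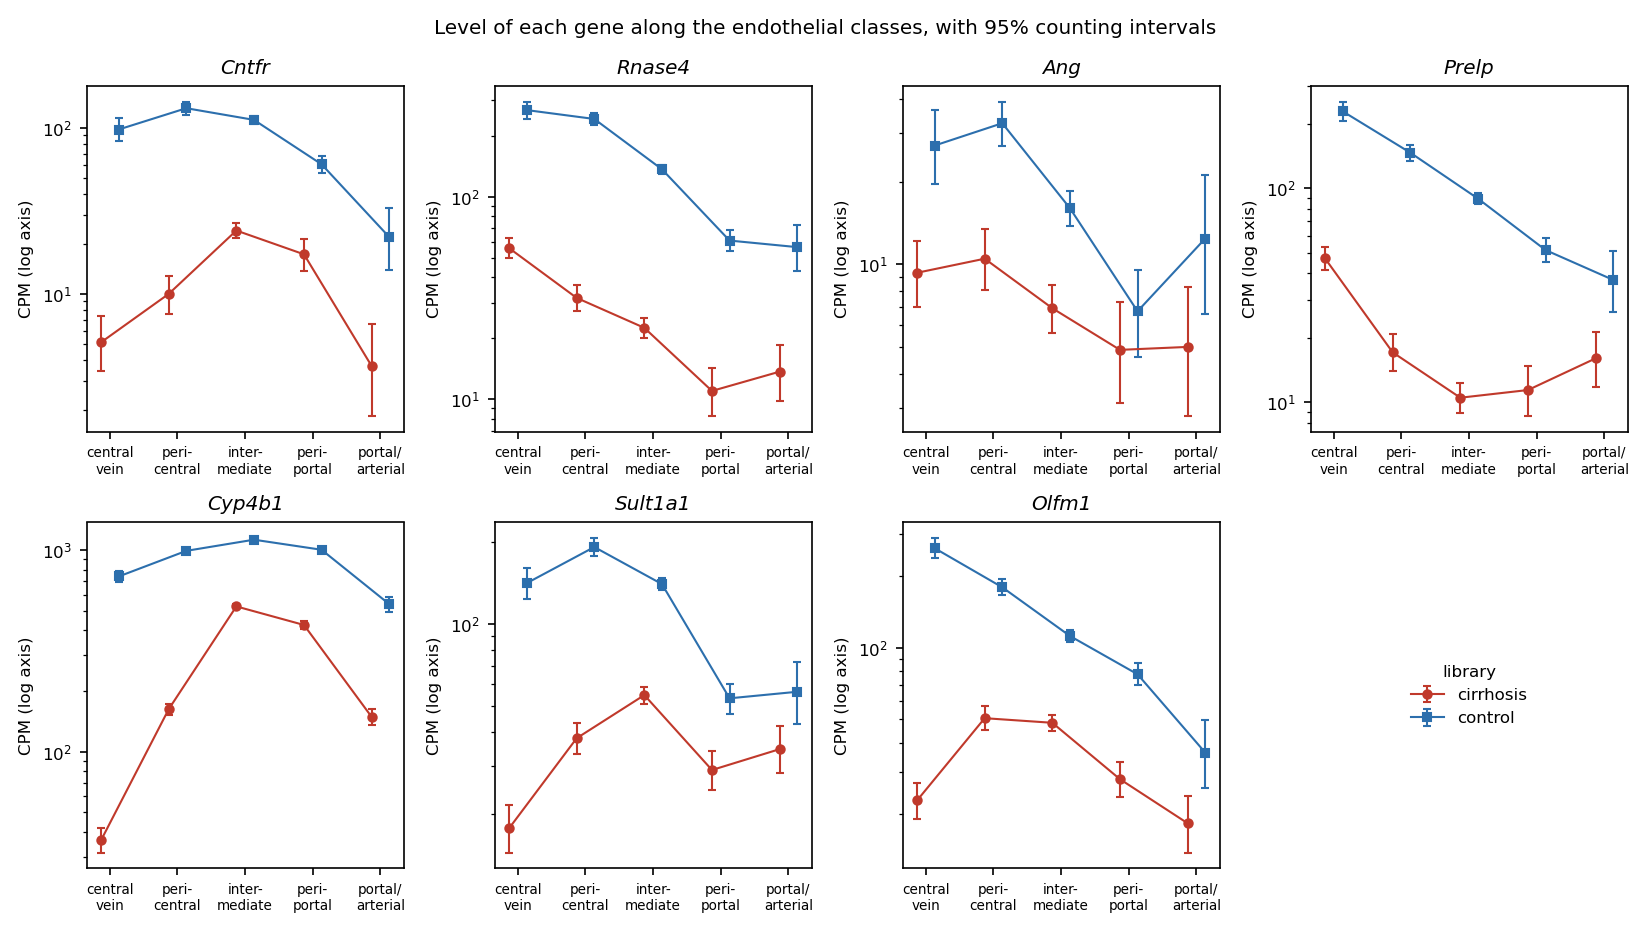
Level of each gene in CPM (log axis) along 5 endothelial classes from the central vein to the portal side, in the cirrhosis library (circles) and the control library (squares), with 95% counting intervals as bars. Every cirrhosis point lies below its control point, and the Ang intervals overlap in the periportal and in the portal or arterial class.

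The ratios differed between zones, and not in the same order for every member. In pericentral cells, 522 in cirrhosis and 476 in control, all 7 members were at least 2-fold lower, where 2.67% of genes were, with a median member ratio of -2.61. In intermediate cells all 7 were (1.54% of genes, member median -1.35), and in periportal cells 5 were (1.54% of genes, member median -1.46). Periportal Sult1a1 stood at 29.1 CPM against 53.4 CPM (log2 -0.87, -1.18 to -0.57), and periportal Ang at 4.88 CPM against 6.75 CPM (log2 -0.47, -1.30 to 0.35), a difference not detectable at this depth.

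Cntfr, the cytokine receptor, was lower in pericentral than in periportal cells in cirrhosis and higher there in control, while intermediate cells stood above periportal cells in both. Its levels were 9.98 CPM in pericentral, 24.1 CPM in intermediate and 17.3 CPM in periportal cells in cirrhosis, against 131 CPM, 112 CPM and 60.3 CPM in control. The pericentral over periportal log2 ratio was -0.79 in cirrhosis (-1.30 to -0.30) and 1.12 in control (0.91 to 1.34). The cirrhosis over control ratio was lowest in pericentral cells among the 3 zones, at log2 -3.72, and it differed from the periportal ratio by -1.92 (-2.44 to -1.39).

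Cyp4b1, the P450, was nearly even across zones in control and uneven in cirrhosis. It stood at 162 CPM in pericentral, 525 CPM in intermediate and 425 CPM in periportal cells in cirrhosis, against 990.0 CPM, 1124 CPM and 1002 CPM in control. Pericentral over periportal, its log2 ratio was -1.39 in cirrhosis (-1.499 to -1.28) and -0.02 in control (-0.08 to 0.05). Cyp4b1 was also among the leading genes of 1 intermediate cluster, so its zone levels are in part set by the clustering. With the 7 members left out of the clustering genes, that log2 ratio was -1.81 in cirrhosis and -0.14 in control.

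Sult1a1, the sulfotransferase, had its pericentral excess nearly levelled. It stood at 38.1 CPM in pericentral and 29.1 CPM in periportal cells in cirrhosis (log2 0.39, 0.08 to 0.70), against 191.7 CPM and 53.4 CPM in control (log2 1.85, 1.63 to 2.06). With the members left out of the clustering genes, the cirrhosis value was -0.15 (-0.46 to 0.17), so its sign is not settled, and the control value was 1.75.

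Rnase4, Ang, Prelp and Olfm1 were higher in pericentral than in periportal cells in both libraries, although Ang in cirrhosis, at 10.5 CPM and 4.88 CPM, did not leave the range of the T or NK cell-like background given further on. The pericentral over periportal log2 ratio of Rnase4 was 1.53 in cirrhosis and 1.99 in control, and that of Ang 1.10 and 2.28. That of Prelp was 0.58 and 1.51, and that of Olfm1 0.85 and 1.21. Central vein type over periportal, Olfm1 had -0.30 (-0.65 to 0.06) in cirrhosis and 1.76 in control, and with the members left out of the clustering genes -0.44 (-0.84 to -0.05) in cirrhosis. Among these 4, the ratios of cirrhosis over control in pericentral and periportal cells differed beyond counting error for Ang, Prelp and Olfm1, with the pericentral one lower, while for Rnase4 the interval of the difference reached 0 (-0.47, -0.95 to 0.01).

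The LSEC-like class was made up of 6 second-step clusters, and 2 further ones were the vessel classes. In all 8 clusters each member was lower in cirrhosis. Over the 6 LSEC clusters, levels in the 2 libraries did not overlap for Cntfr, Rnase4, Prelp, Cyp4b1 and Olfm1. Prelp, for example, ranged between 7.55 CPM and 17.1 CPM in cirrhosis and between 51.4 CPM and 147 CPM in control. Ang and Sult1a1 overlapped. The clusters divide the same library in each group, so they are not replicates. No share of all genes that were lower in every cluster, or that did not overlap, is given. Since the members were chosen for being lower in LSEC-like cells, nothing is read from the direction or from the lack of overlap.

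Endothelium of the central vein type, marked by Rspo3 and Wnt9b, held the ratios farthest below 0 of any endothelial class for 4 members. It numbered 422 cells in cirrhosis and 166 in control, and all 7 members were at least 2-fold lower, where 5.47% of genes were. Cyp4b1 stood at 36.4 CPM against 739 CPM (log2 -4.34, -4.56 to -4.13) and Olfm1 at 22.9 CPM against 261 CPM (log2 -3.51, -3.81 to -3.22). Cntfr stood at 5.10 CPM against 97.7 CPM (log2 -4.26, -4.88 to -3.68) and Sult1a1 at 17.8 CPM against 141 CPM (log2 -2.99, -3.34 to -2.65). For Cyp4b1, Olfm1 and Sult1a1 this was below the pericentral ratio beyond counting error, and for Cntfr the difference of -0.54 had an interval of -1.23 to 0.15. Prelp, at 47.0 CPM against 229 CPM, and Rnase4, at 55.8 CPM against 268 CPM, had ratios nearer to 0 there than in pericentral cells, -2.28 for Prelp and -2.26 for Rnase4. Ang stood at 9.32 CPM against 27.1 CPM (log2 -1.54).

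The make-up of that class differed between libraries. In it Rspo3 stood at 322 CPM in cirrhosis and 1012 CPM in control, while Wnt9b stood at 544 CPM against 235 CPM. Its LSEC markers summed to 7740 CPM in cirrhosis and 21642 CPM in control, which is 37.3% and 73.7% of the level in LSEC-like cells of the same library, and Stab2, a scavenger receptor of LSECs, stood at 711 CPM against 1755 CPM. Stellate and fibroblast markers summed to 49.4 CPM against 287 CPM there, with 11 of 12 detected in both. Lymphatic markers summed to 425 CPM, with 6 of 6 detected, against 42.2 CPM, with 5 of 6. Only 1 of them reached 20 CPM in each library, and Nts, on that list, was among the leading genes of this cluster. The lymphatic markers Prox1, at 2.99 CPM against 6.93 CPM, and Pdpn, at 0.176 CPM against 11.3 CPM, were lower in cirrhosis. The sum is therefore not read as lymphatic content. Kupffer cell markers summed to 352 CPM against 185 CPM, with 10 of 11 detected in both. The part of any of these in the members' ratios was not tested. With the members left out of the clustering genes the class held 310 and 68 cells, and Cyp4b1 stood at 28.8 CPM against 517 CPM.

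Portal or arterial endothelium, marked by Gja5 and Sema3g, held less of most members than LSEC-like cells in both libraries. Among 293 cells in cirrhosis and 116 in control, 5 of 7 members were at least 2-fold lower, where 2.25% of genes were. Cntfr stood at 3.67 CPM against 22.0 CPM (log2 -2.58, -3.77 to -1.49), Rnase4 at 13.7 CPM against 56.4 CPM (log2 -2.04) and Cyp4b1 at 149 CPM against 539 CPM (log2 -1.86). Olfm1 and Sult1a1 had the ratios nearest to 0, at -0.98 (-1.61 to -0.35) for Olfm1 and -0.70 (-1.17 to -0.21) for Sult1a1.

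Lymphatic endothelial-like cells, with Prox1 at 475 CPM, were 62 in cirrhosis and 2 in control, too few for a comparison. In the cirrhosis library they stood above its LSEC-like cells for 5 members. Prelp was at 769 CPM (705 to 837) in lymphatic and 12.2 CPM in LSEC-like cells, Rnase4 at 315 CPM against 22.4 CPM, Olfm1 at 286 CPM against 44.9 CPM, Sult1a1 at 285 CPM against 45.9 CPM and Ang at 66.8 CPM against 7.36 CPM. Cyp4b1 was at 433 CPM (385 to 485), close to the 420.2 CPM of LSEC-like cells. Cntfr had 0 UMIs, which allows up to 5.36 CPM. Low levels of those 5 members were thus not common to every endothelial class of the cirrhosis library. Hepatocyte markers summed to 2553 CPM in these lymphatic cells, which is 2.71% of their hepatocyte-like level, while Rnase4 stood at 116% and Ang at 32.0% of theirs.

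**Figure D2:**
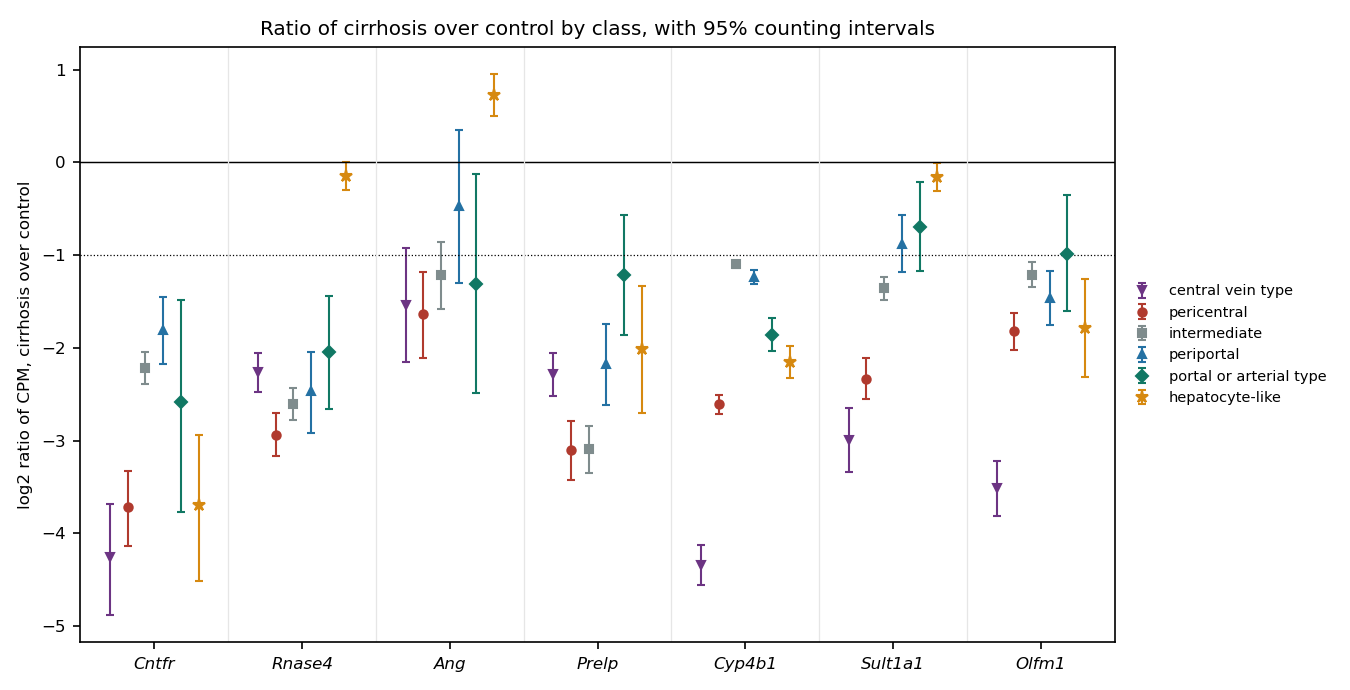
Log2 ratio of CPM, cirrhosis over control, of each gene in 5 endothelial classes and in hepatocyte-like barcodes, with 95% counting intervals as bars, a solid line at 0 and a dotted line at a 2-fold lower level. Hepatocyte-like Ang lies above 0 at 0.73, while Cyp4b1 in the central vein type lies lowest at -4.34.

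Hepatocyte-like barcodes had ratios of another pattern. They were shallow, with medians of 2210 UMIs in cirrhosis and 1791 UMIs in control, and the 2 libraries occupied different clusters: first-step cluster 1 held 1321 of the cirrhosis and 13 of the control barcodes, and first-step cluster 8 held 12 and 422. In them 4 of 7 members were at least 2-fold lower, where 9.12% of 5790 genes were. Ang was higher, at 209 CPM in cirrhosis and 126 CPM in control (log2 0.73, 0.50 to 0.95). Rnase4 stood at 272 CPM against 302 CPM (log2 -0.15, -0.30 to 0.00) and Sult1a1 at 275 CPM against 306 CPM (log2 -0.15, -0.30 to -0.00), which is 1.11-fold lower for both. Set against their LSEC-like ratios, the hepatocyte-like ratios were higher by 2.47 for Rnase4 (2.28 to 2.67), 1.92 for Ang (1.58 to 2.26) and 1.35 for Sult1a1 (1.17 to 1.53).

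The other 4 members were at least 2-fold lower in hepatocyte-like barcodes in cirrhosis, and LSEC markers differed in the same direction. Cyp4b1 stood at 87.5 CPM in cirrhosis and 388.5 CPM in control, Cntfr at 3.35 CPM against 43.5 CPM, Olfm1 at 11.6 CPM against 40.2 CPM and Prelp at 6.53 CPM against 26.3 CPM. LSEC markers summed to 4121 CPM against 10327 CPM in the same barcodes, with 12 of 12 detected in both. In the 796 cirrhosis and 131 control barcodes with under 0.1% of counts from LSEC markers, Cyp4b1 stood at 9.45 CPM against 40.7 CPM, and Cntfr, Prelp and Olfm1 had at most 13 UMIs in either library. In those barcodes Rnase4 stood at 327 CPM against 354 CPM, Sult1a1 at 345 CPM against 409.7 CPM and Ang at 251 CPM against 163 CPM (log2 0.63, 0.24 to 1.05). This subset was chosen after the data had been looked at.

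**Figure D3:**
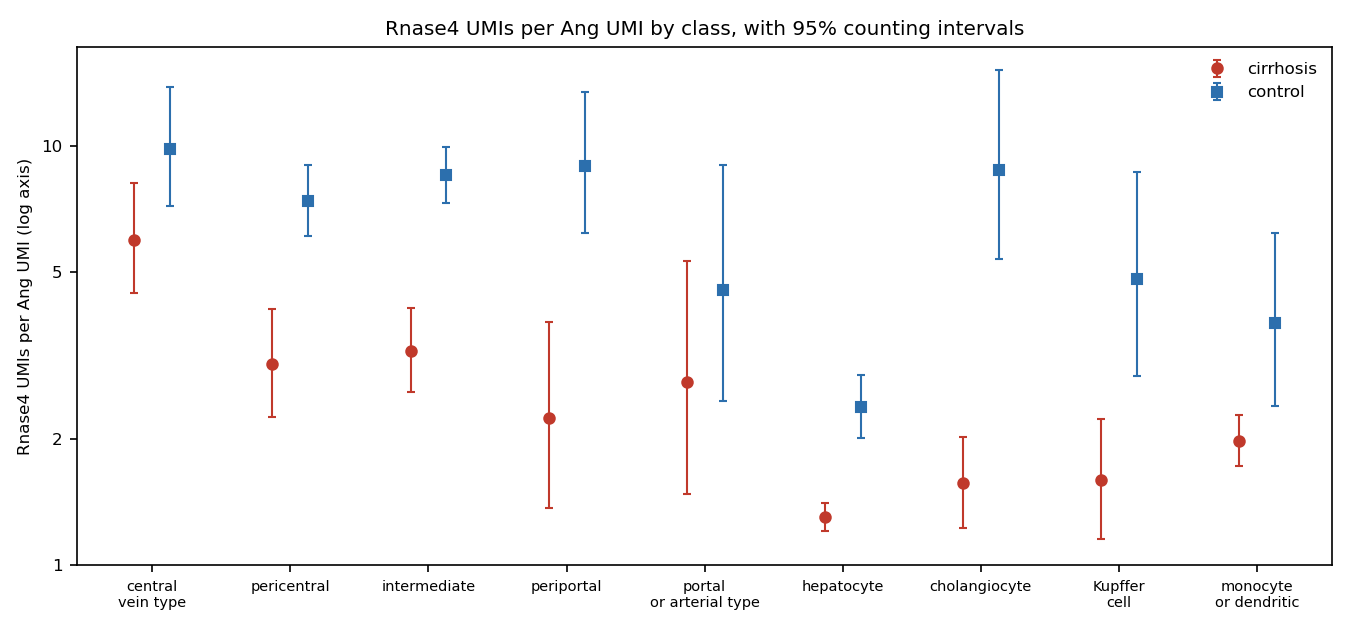
Rnase4 UMIs per Ang UMI (log axis) in 9 classes of the cirrhosis library (circles) and the control library (squares), with 95% counting intervals as bars. The cirrhosis value is the lower in each class, at 1.30 against 2.39 in hepatocyte-like barcodes and 5.98 against 9.88 in the central vein type.

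The proportion of the neighbouring genes Rnase4 and Ang differed between classes and libraries, in counts of tagged transcripts that are not scaled by length. LSEC-like cells had 3.04 Rnase4 UMIs per Ang UMI in cirrhosis (2.57 to 3.61) and 8.18 in control (7.31 to 9.18). T or NK cell-like cells, which served as the background, had 3 (1.30 to 7.72) in cirrhosis and 7.71 (3.50 to 20.1) in control. The LSEC-like values could not be told from the proportion in those cells. Hepatocyte-like barcodes had 1.30 (1.20 to 1.40) against 2.39 (2.01 to 2.84), and the central vein type 5.98 against 9.88. Because Ang and Rnase4 end 4142 bases apart and 3′ ends were sequenced, each count depends on how the reads of its own 3′ end were assigned.

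Part of the counts in any droplet class can be free RNA, so lymphocyte-like cells served as the background. Each barcode was thinned to 1000 UMIs, which left out 6 LSEC-like cells in cirrhosis and 10 in control. After thinning, 30.3% of LSEC-like cells in cirrhosis and 63.9% in control had a Cyp4b1 UMI, against 2.81% and 7.88% of T or NK cell-like cells. Before thinning these shares were 83.3% and 96.9% of LSEC-like cells, at medians of 9606 UMIs and 6888 UMIs, and 6.18% and 27.3% of T or NK cell-like cells, at 5725 UMIs and 6650 UMIs. Thinned shares of the other members in LSEC-like cells were 2.32% against 10.1% for Cntfr, 2.44% against 12.2% for Rnase4 and 0.889% against 7.91% for Prelp. They were 3.48% against 12.0% for Sult1a1 and 4.45% against 10.7% for Olfm1. In T or NK cell-like cells of the cirrhosis library, Rnase4 was found in 1.12%, Sult1a1 in 0.562% and Olfm1 in 1.69%. Cntfr and Prelp were found in 0 of 178 cells, where 3 cells would make a share of 1.69%. In those of the control library the shares were 0.985% for Cntfr, 2.96% for Rnase4, 0.985% for Prelp, 0.493% for Sult1a1 and 0.985% for Olfm1. At 178 cells, the intervals of these 5 background shares overlapped those of the LSEC-like shares in cirrhosis. In summed counts of the cirrhosis library, LSEC-like cells stood above T or NK cell-like cells, at 19.4 CPM against 1.75 CPM (0.212 to 6.32) for Cntfr, 45.9 CPM against 6.99 CPM (3.02 to 13.8) for Sult1a1 and 44.9 CPM against 9.62 CPM (4.80 to 17.2) for Olfm1.

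In cirrhotic LSEC-like cells as a whole, neither Ang nor Rnase4 could be told from the T or NK cell-like level. Ang was found in 0.541% of thinned LSEC-like cells in cirrhosis (0.296% to 0.907%) and 1.40% in control (0.991% to 1.91%), against 0.562% and 0.493% of T or NK cell-like cells. Its level was 7.36 CPM against 16.9 CPM in LSEC-like and 6.99 CPM against 4.56 CPM in T or NK cell-like cells, whose cirrhosis value rests on 8 UMIs (3.02 CPM to 13.8 CPM). The share of LSEC-like cells with Ang in cirrhosis is therefore not read as expression. Pericentral Ang in cirrhosis, at 10.5 CPM (8.04 to 13.4), also lay within that background interval. Rnase4 stood at 22.4 CPM in cirrhotic LSEC-like cells and 20.98 CPM (13.4 to 31.2) in T or NK cell-like cells of that library, but at 5.56 CPM (1.15 to 16.3) in B cell-like cells. In the control library it stood at 138 CPM in LSEC-like, 35.2 CPM in T or NK cell-like and 17.8 CPM in B cell-like cells. The cirrhosis over control ratios of Ang and Rnase4 in LSEC-like cells hold this background on both sides. Prelp was above the T or NK cell-like level in both libraries, at 12.2 CPM against 0.874 CPM (1 UMI, 0.0221 to 4.87) in cirrhosis and 91.0 CPM against 18.3 CPM in control. In B cell-like cells of the cirrhosis library Prelp stood at 3.71 CPM (0.449 to 13.4), an interval that holds 12.2 CPM. In hepatocyte-like barcodes, of which thinning left out 298 in cirrhosis and 125 in control, Rnase4 was found in 24.9% and 23.9%, Ang in 18.6% and 10.6%, and Sult1a1 in 24.8% and 29.7%.

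**Figure D4:**
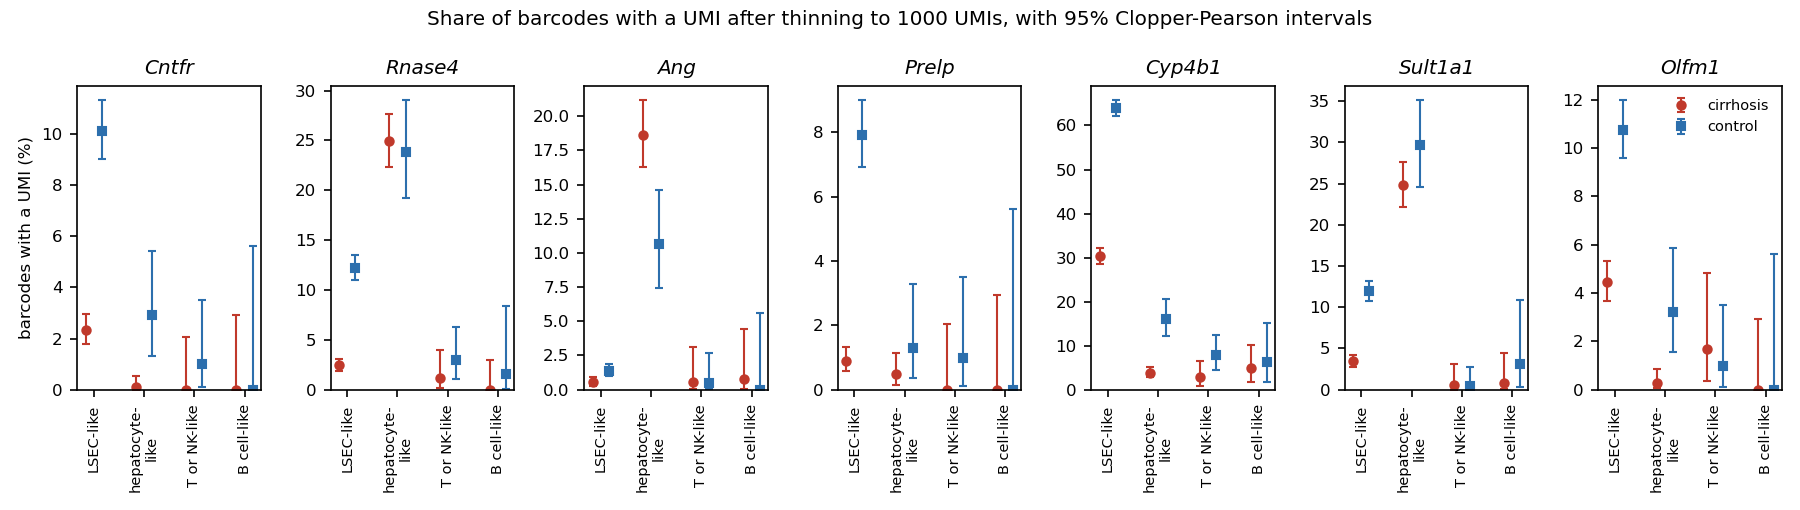
Share of barcodes with a UMI of each gene after thinning to 1000 UMIs, in LSEC-like, hepatocyte-like, T or NK-like and B cell-like barcodes of the cirrhosis library (circles) and the control library (squares), with 95% Clopper-Pearson intervals as bars. Cyp4b1 in LSEC-like cells is at 30.3% in cirrhosis and 63.9% in control, and hepatocyte-like barcodes have the highest shares of Rnase4, Ang and Sult1a1.

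The number of members found in a cell depended on depth and library. After thinning to 3000 UMIs, which left out 109 cells in cirrhosis and 211 in control, an LSEC-like cell held a mean of 1.04 of the 7 in cirrhosis and 2.34 in control, with none found in 26.5% of cells in cirrhosis and 2.03% in control. At least 4 were found in 0.403% in cirrhosis and 17.2% in control. Without thinning, at least 4 were found in 10.3% of cells in cirrhosis and 46.9% in control.

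The relatives of each member were looked at through gene families. The lists were drawn up with earlier results of these data known, and the genes in them that reached 20 CPM in LSEC-like cells are counted here. Of the listed relatives of Cntfr in the receptor family and its signalling 10 were measured, and of these 1 was at least 2-fold lower and none higher, with a median log2 ratio of -0.38, where 1.66% of all genes were at least 2-fold lower and 1.43% higher, with a median of -0.04. Socs3, an inhibitor induced by this signalling and also by other stimuli, was that gene, at 105 CPM in cirrhosis and 458 CPM in control (log2 -2.13, -2.19 to -2.07). With Fosb, an early-response gene like Fos, Socs3 was among the leading genes of first-step cluster 12. That cluster held 15 cirrhosis and 1325 control barcodes, and what lay behind the Socs3 ratio was not tested. Osmr, the oncostatin M receptor, stood at 82.8 CPM against 153 CPM, and Ptpn11, a phosphatase in the pathway, at 82.6 CPM against 55.0 CPM. The co-receptors, named here after their values were seen, stood at 902 CPM against 1296 CPM for Lifr and 1325 CPM against 1869 CPM for Il6st, log2 ratios of -0.52 for Lifr and -0.50 for Il6st. Jak1 and Tyk2, kinases of the pathway, also had intervals below 0, at -0.45 and -0.30. Jak2, a further kinase, had an interval above 0, at 0.13 (0.02 to 0.23), and those of Stat3 (-0.03) and Il11ra1 (0.05) held 0. These genes were likewise named after their values were seen, and no share of all genes with such intervals is given.

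Among the other lists, with 1 measured relative for the ribonucleases, 2 for the proteoglycans, 5 for family 4 P450 enzymes, 4 for the sulfotransferases and 2 for olfactomedin domain proteins, 1 further relative was at least 2-fold lower and none higher. This was Dcn, which encodes decorin, a small leucine-rich proteoglycan like the product of Prelp, at 14.0 CPM against 39.5 CPM (2.83-fold lower, log2 interval -1.68 to -1.32). Dcn is itself one of the 12 stellate and fibroblast markers given above. Biglycan, Bgn, the other measured proteoglycan, stood at 336 CPM against 460.3 CPM. Rnh1, the inhibitor that binds ribonucleases of this family, stood at 46.5 CPM against 43.1 CPM. Around Cyp4b1, the electron donor genes Por and Cyb5r3 stood at 38.5 CPM against 47.1 CPM and at 242 CPM against 152 CPM, and Cyp4f13 at 20.6 CPM against 23.9 CPM. Around Sult1a1, Papss1, which makes the sulfate donor, stood at 50.03 CPM against 42.1 CPM, the donor transporter gene Slc35b3 at 83.8 CPM against 81.3 CPM, and Bpnt1, which degrades the used donor, at 20.3 CPM against 22.9 CPM. Of the olfactomedin domain genes, the latrophilin genes Adgrl1 and Adgrl2 stood at 52.7 CPM against 49.99 CPM and at 418 CPM against 362 CPM. None of 5 listed binding partners of olfactomedin 1 reached 20 CPM.

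Over 26 points, each a class in 1 library with at least 50 cells, the genes most like each member were found by Pearson's r of log2(CPM + 1) among 7280 genes. Points of 1 library share its depth and free RNA, so r is a description. Cntfr was most like Pla2r1 (r = 0.93) and Oit3 (0.90), Cyp4b1 like Adm (0.92) and Amotl2 (0.88), and Olfm1 like Fam102b (0.87) and Stab1 (0.83). Prelp was most like Bambi (0.86) and Ctnnal1 (0.85), and Sult1a1 like Sqor (0.88) and Tmem205 (0.86). Rnase4 was most like 2 other members, Sult1a1 (0.82) and Ang (0.75), while Ang was most like Iscu (0.90) and Ethe1 (0.85). Among pairs of members, r was highest for Rnase4 with Sult1a1 (0.82) and Prelp with Olfm1 (0.81), and lowest for Cntfr with Ang (-0.10).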

How the data were processed

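Per the labels' protocols, sorted cells went through a droplet 3′ kit, and Cell Ranger and the build mm10 are named per the submitters' processing notes. For the version, the annotation, strand and any barcode filter the sources used here give nothing. The deposited tables hold raw UMI counts per gene symbol and barcode. The lowest barcode had 500 UMIs in both.

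Barcodes needed 500 UMIs, 300 genes and under 20% mitochondrial and 5% erythroid counts, which removed 666 cirrhosis and 475 control barcodes. Doublets, 0.8% per 1000 barcodes by simulated neighbours, removed 470 and 214, leaving 7191 and 4953. Counts scaled to 10000 were log-transformed, and 2000 variable genes, 30 components and 20 neighbours gave Leiden clusters at resolution 1 (scanpy 1.11.5). Endothelial cells with under 0.5% of counts from any other type's markers were clustered again, each library centred on its own. Classes were named from marker lists that hold no member. The data had been looked at when resolution and naming limits were chosen, and 15.6% and 14.4% of retained barcodes stayed outside named classes. Names were rebuilt here, so class sizes may differ from the study's.

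UMIs were summed per class and library and given as CPM with exact Poisson intervals. Ratios have exact conditional intervals, differences of ratios normal intervals on the log scale, and shares Clopper-Pearson intervals. The ratio and its interval were checked on counts simulated with counting error alone. That check does not cover variation between mice or libraries. Named genes were the members, in each list up to 3 relatives with the largest absolute ratio at 20 CPM in either library, and the 2 most alike genes per member. Members and lists were chosen with earlier results of these data known. Alternatives were another scaling, a stricter filter, doublets kept, less hepatocyte RNA, members left out of clustering, a higher second-step resolution, equal zone weights, single control clusters, cell means, no filter on low values and other thinning depths. Added after seeing the data were hepatocyte-like barcodes low in LSEC markers and LSEC-like cells without a shallow intermediate cluster. Per the labels, each library pools 3 mice, so mice cannot be separated.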

Additional observations from a re-analysis of the deposited data

Results flagged for a closer look

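Ang stood out because its ratio had opposite signs in different cell types, and the difference between cell types was not tested over replicates, since there was 1 library per group. In LSEC-like cells its log2 ratio of cirrhosis over control was -1.20, and in hepatocyte-like barcodes 0.73. In cholangiocyte-like cells it was 1.94, at 30.7 CPM in cirrhosis and 7.97 CPM in control, where hepatocyte markers summed to 13492 CPM and 8338 CPM. In Kupffer cell-like cells it was 1.90, at 29.2 CPM against 7.80 CPM, where those markers summed to 2264 CPM against 1547 CPM. In monocyte or dendritic-like cells it was 1.20, at 43.0 CPM against 18.7 CPM, with marker sums of 2091 CPM against 743 CPM. At least 15 of the 16 hepatocyte markers were detected in each class, and their part in the Ang ratio was not tested.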

How the results depend on the processing

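No paired analysis was possible because there is 1 library per group and no replicate to pair. Under every alternative run, each member's ratio in LSEC-like cells stayed below 0, over ranges of -3.04 to -2.29 for Prelp, -2.75 to -1.23 for Rnase4, -2.56 to -2.05 for Cntfr, -1.66 to -0.35 for Sult1a1, -1.60 to -0.84 for Olfm1, -1.49 to -1.29 for Cyp4b1 and -1.34 to -0.19 for Ang. In LSEC-like cells the count of members at least 2-fold lower was 4 of 7 against control cells of first-step cluster 3 alone, with a median of -1.23, and 6 against those of first-step cluster 9 alone, and it stayed at 7 in the other alternatives. The median was -1.63 against first-step cluster 12 alone and -1.66 with zones weighted equally. In periportal cells the count was 3 of 7 at the higher second-step resolution. It ranged between 6 and 7 in intermediate, 4 and 6 in portal or arterial, and 3 and 4 in hepatocyte-like barcodes, and was 7 throughout in pericentral and central vein type cells. The cause was not tested. With no filter on low values, 9.76% of 15979 genes were at least 2-fold lower in LSEC-like cells. Limiting hepatocyte markers to 0.1% could give no value in hepatocyte-like barcodes. Depth limits Ang most, and lymphatic cells could not be compared between libraries.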
